A study of Mus musculus with 16 samples.

Results

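The 7 genes described here encode tau and other classical microtubule-associated proteins, and were chosen by symbol: Mapt, Map1a, Map1b, Map2, Map4, Map6 and Map7, out of 30389 genes in the expression tables. Drop-seq, a droplet method that reads the 3′ end of each mRNA together with a tag of its cell and a tag of its molecule (the unique molecular identifier, UMI), had been run on the dissociated neocortex of 1 hemisphere from mice aged 17 months, in 16 libraries. The THY-Tau22 mice carried, in the heterozygous state on the C57Bl6/J background, a human 4-repeat tau with the changes G272V and P301S under the neuronal Thy1.2 promoter, and the wild-type (WT) mice were littermates without it. By the labels the males were 4 WT and 4 THY-Tau22 and the females 3 WT and 5 THY-Tau22. No other treatment was named for any group.

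Barcodes with 200 to 7000 detected genes were kept as cells, 28530 of 48000, with a median of 429 to 736.5 UMIs per cell in a library and 755945 to 2089367 UMIs per library. The tables of WT male 3 and THY-Tau22 male 4 shared 2952 of their 3000 barcodes, against 12 at most in any other pair, so neither entered a comparison and 24578 cells of 14 libraries were used, from 3 animals of each genotype among the males, and 3 WT and 5 THY-Tau22 among the females. The titles of WT male 1 and THY-Tau22 female 1 carry the same code beginning with TAO, and those of WT female 3 and THY-Tau22 female 5 the prefix MB22. The titles also carry codes of an S and a number that recur between libraries. The meaning of these codes is not given in the sources used here. Cells were clustered without the 7 genes and the clusters were named from marker lists, which gave 6967 microglia-like, 4660 oligodendrocyte-like, 4539 astrocyte-like, 3328 endothelial-like, 1217 neuron-like, 1105 oligodendrocyte precursor (OPC)-like, 900 mural-like and 125 ependymal-like cells, with 1737 unnamed. Neuron-like cells were few, 25 to 204 per library. In THY-Tau22 male 3, 31.2% of cells were unnamed, against 3.78% to 7.87% in the other 13 libraries. Levels are given as CPM, the UMIs of a gene per 1000000 UMIs summed over the cells of a class in a library, and they compare a gene between cells, not one gene with another. Mouse Mapt is the endogenous gene, and the tables hold no row for human MAPT, so the transgene was not measured by a row of its own. Whether some of its reads were counted under Mapt or Thy1 was not tested.

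Microtubule-associated proteins bind the lattice of tubulin polymers and stabilise, space or anchor them. Tau is best known from axons, MAP2 from dendrites and cell bodies, and MAP1A and MAP1B from mature and growing neurites, in that order, while MAP4 is the form found in most non-neuronal cells, MAP6 makes microtubules resistant to cold and MAP7 recruits the motor kinesin-1. Oligodendrocytes carry microtubules along their processes too, where they serve as tracks for the transport of myelin mRNAs.

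In genome build GRCm38 the genes are protein coding and lie on 7 chromosomes. Mapt spans chr11:104231390-104332090 on the plus strand, Map1a chr2:121289600-121310832, Map2 chr1:66175273-66442583, Map4 chr9:109931460-110083955, Map6 chr7:99267447-99337137 and Map7 chr10:20148471-20281590, all on the plus strand, and Map1b spans chr13:99421446-99516540 on the minus strand (GENCODE M21). The exons of Map1a overlap those of Ppip5k1 on the opposite strand, which held 392 UMIs in the kept cells against 5203 for Map1a. Whether the counting used strand is not given in the sources used here, so part of the Map1a count could belong to that gene. The antisense genes whose exons overlap Map2 and Map7, Gm10558 and Gm48249, held 11 and 0 UMIs.

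The RefSeq table held promoters of 5 of the 7 members, all but Mapt and Map6. Those of 4 are printed because these genes split into the 2 main patterns described next, a neuron-led one (Map1b and Map2) and one with high levels in oligodendrocyte-like cells (Map1a and Map7). Each is the RefSeq window of 250 bases before to 50 bases after the gene start in GRCm38.p6, read 5′ to 3′ on the strand of the gene, with every match to the GC box GGGCGG on either strand in capitals.
Map1b, chr13:99516553-99516852, minus strand: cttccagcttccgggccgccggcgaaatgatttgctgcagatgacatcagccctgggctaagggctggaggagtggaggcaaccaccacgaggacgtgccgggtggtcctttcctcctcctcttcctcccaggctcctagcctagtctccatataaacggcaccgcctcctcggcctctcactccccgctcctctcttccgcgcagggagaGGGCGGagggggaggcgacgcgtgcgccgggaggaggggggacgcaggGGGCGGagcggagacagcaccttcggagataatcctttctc
Map2, chr1:66175079-66175378, plus strand: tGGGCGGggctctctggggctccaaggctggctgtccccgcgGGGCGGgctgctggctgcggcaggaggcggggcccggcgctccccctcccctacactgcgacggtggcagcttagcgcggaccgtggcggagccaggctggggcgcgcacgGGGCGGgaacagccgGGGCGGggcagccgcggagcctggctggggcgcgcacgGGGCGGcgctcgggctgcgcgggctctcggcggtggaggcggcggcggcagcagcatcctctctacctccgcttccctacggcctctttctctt
Map1a, chr2:121289352-121289651, plus strand: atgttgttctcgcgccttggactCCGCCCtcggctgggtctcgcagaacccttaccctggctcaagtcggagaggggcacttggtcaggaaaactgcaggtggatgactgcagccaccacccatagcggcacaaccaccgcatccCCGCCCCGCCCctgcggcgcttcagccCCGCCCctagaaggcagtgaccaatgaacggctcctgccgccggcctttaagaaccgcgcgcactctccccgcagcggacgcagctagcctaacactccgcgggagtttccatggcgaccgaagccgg
Map7, chr10:20148670-20148969, plus strand: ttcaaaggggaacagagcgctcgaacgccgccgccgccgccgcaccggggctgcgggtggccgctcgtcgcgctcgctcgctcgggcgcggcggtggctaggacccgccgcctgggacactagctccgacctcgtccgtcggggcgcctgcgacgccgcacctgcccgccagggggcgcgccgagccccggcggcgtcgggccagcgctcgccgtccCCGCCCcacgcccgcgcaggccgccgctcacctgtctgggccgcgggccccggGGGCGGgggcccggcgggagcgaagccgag

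All 4 windows were rich in CG dinucleotides. Map7 held 55 of them, more than 99.7% of the 32851 promoters in the table, Map2 held 37, Map1a 27 and Map1b 23, against a median of 7. The GC box occurred 5 times in Map2, 4 times in Map1a, where 2 neighbouring matches share 1 base, and 2 times in each of Map1b and Map7, and at least once in 35.7% of all promoters. A TATAAA match was found in Map1b alone of the 4 and in 13.6% of all promoters. Neither ACAAAG nor CAGCTG, searched on both strands, was present in these 4 windows, and 18.7% and 16.3% of all promoters held them. These matches are a description of the sequence and did not separate the neuron-led from the oligodendrocyte-high pair.

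The members fell into distinct patterns over cell classes. Mapt and Map7 were highest in oligodendrocyte-like cells, Map1b, Map2, Map1a and Map6 in neuron-like cells, and Map4 in endothelial-like cells. The classes are clusters of the same cells, so their levels are given without a test.

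**Figure D1:**
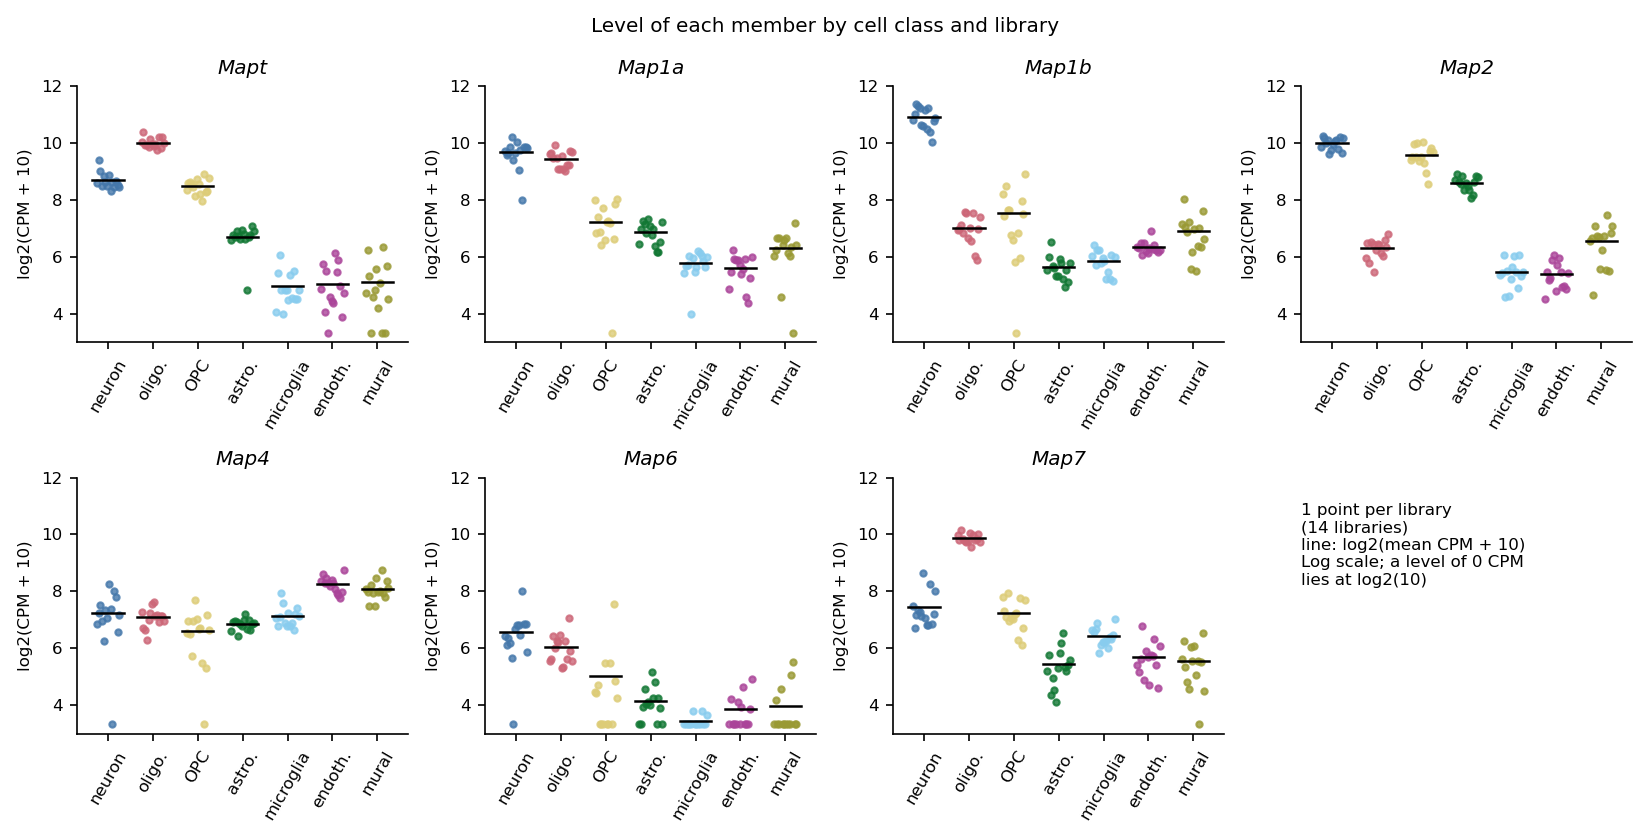
Level of each of the 7 genes as log2(CPM + 10) (y axis, log scale) in 7 cell classes (x axis), with 1 point for each of 14 libraries and a line at the mean CPM. Mapt and Map7 peak in oligodendrocyte-like cells, Map1b and Map2 in neuron-like cells, and Map4 in endothelial-like and mural-like cells.

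Mapt, the gene of tau, averaged 1021 CPM ± 127 (SD, n = 14) in oligodendrocyte-like cells and 406 CPM ± 91.8 (SD, n = 14) in neuron-like cells. It was higher in oligodendrocyte-like cells in 14 of 14 libraries, and the ranges, 844 to 1312 CPM and 309 to 665 CPM, did not overlap. OPC-like cells followed at 347 CPM ± 65.9 (SD, n = 14), which overlapped the neuron-like range and was lower in 10 of 14 libraries. Astrocyte-like cells averaged 94.3 CPM, apart from OPC-like cells in all 14 libraries. Endothelial-like and mural-like cells, at 23.2 and 24.3 CPM, and microglia-like cells, at 5.95 to 57.4 CPM, overlapped one another. Of all 4916 Mapt UMIs, 70.6% lay in oligodendrocyte-like and 10.2% in neuron-like cells, which made up 18.96% and 4.95% of cells.

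Map7, a partner of kinesin-1, was still more unequal. It averaged 923 CPM ± 107 (SD, n = 14) in oligodendrocyte-like cells and 166 CPM ± 84.9 (SD, n = 14) in neuron-like cells, ranges of 735 to 1130 CPM and 93.4 to 386 CPM that did not overlap. Neuron-like and OPC-like cells, at 142 CPM, overlapped, and microglia-like cells had 76.5 CPM. Oligodendrocyte-like cells held 73.5% of the Map7 UMIs.

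Free RNA from broken cells can put UMIs into cells that do not express a gene, so a measure of neuronal RNA was set beside these values. The summed level of 9 neuronal markers, among them Snap25, Syt1 and Gad1, was 10046 CPM in neuron-like cells, 88.5 CPM in oligodendrocyte-like cells, 476 CPM in OPC-like cells and 98.8 to 109 CPM in astrocyte-like, microglia-like and endothelial-like cells. It was thus 114-fold lower in oligodendrocyte-like than in neuron-like cells, while Mapt and Map7 were higher there. At least 1 Mapt UMI was found in 47.2% of oligodendrocyte-like cells, 26.5% of neuron-like cells and 1.22% of microglia-like cells, whose median depths were 582.5, 668.25 and 492.75 UMIs. With each cell thinned to 300 UMIs these shares were 27.0%, 11.0% and 0.529%. For Map7 the shares were 40.6%, 13.0% and 3.98%, and 21.8%, 4.41% and 1.98% after thinning. Barcodes with under 200 genes had 273 CPM of Mapt and 238 CPM of Map7, near the 278 and 239 CPM of all kept cells.

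**Figure D2:**
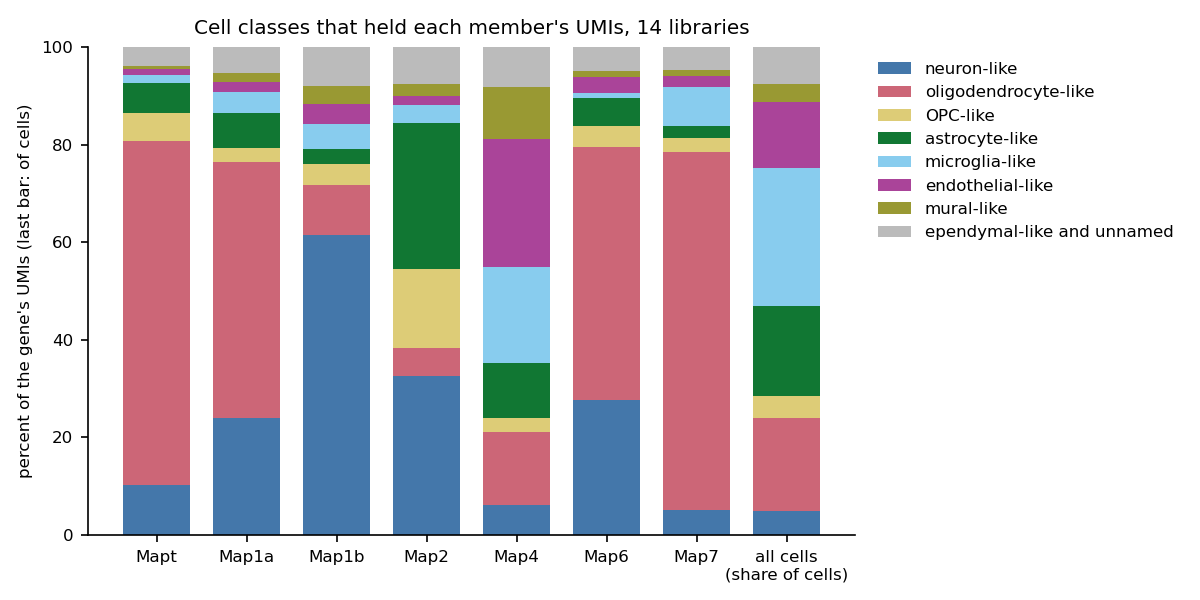
Percent of each gene's UMIs (y axis) held by each cell class in 14 libraries, with the share of cells in each class as the last bar. Oligodendrocyte-like cells held 70.6% of Mapt and 73.5% of Map7 UMIs, and neuron-like cells, 4.95% of cells, held 61.5% of Map1b UMIs.

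Map1b, which is abundant in extending neurites, was the member with the steepest neuronal gradient. It averaged 1897 CPM ± 493.5 (SD, n = 14) in neuron-like cells and 174 CPM ± 128 (SD, n = 14) in OPC-like cells, a ratio of 10.9 with no overlap of the ranges. Oligodendrocyte-like cells followed at 119 CPM, mural-like cells at 109.6 CPM and endothelial-like cells at 70.9 CPM, all overlapping their neighbours. At least 1 Map1b UMI was found in 62.2% of neuron-like and 2.64% of microglia-like cells, or 36.9% and 1.44% at 300 UMIs per cell.

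Map2, the dendritic form, spread over neurons and the astrocyte and precursor classes. It averaged 1008 CPM ± 147 (SD, n = 14) in neuron-like cells, 750.4 CPM ± 197 (SD, n = 14) in OPC-like cells and 372 CPM ± 66.3 (SD, n = 14) in astrocyte-like cells. Neighbouring ranges overlapped, although neuron-like exceeded OPC-like cells in 12 of 14 libraries and OPC-like exceeded astrocyte-like cells in 14 of 14. In oligodendrocyte-like cells Map2 fell to 68.8 CPM, a range of 33.7 to 102 CPM that lay below every astrocyte-like value. In OPC-like cells, where the neuronal marker sum was 21.1-fold lower than in neuron-like cells, Map2 was 1.34-fold lower. Map2 UMIs were present in 39.2% of OPC-like, 20.6% of astrocyte-like and 1.89% of microglia-like cells, or 20.1%, 10.6% and 0.998% after thinning.

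Map1a, found in mature neurites, averaged 806 CPM ± 225 (SD, n = 14) in neuron-like cells and 684 CPM ± 142 (SD, n = 14) in oligodendrocyte-like cells. The neuron-like value was the higher in 10 of 14 libraries and the ranges overlapped, so these 2 classes could not be ordered. OPC-like cells, at 139 CPM, lay below oligodendrocyte-like cells in all 14 libraries. Because oligodendrocyte-like cells were the more numerous, they held 52.4% of Map1a UMIs and neuron-like cells 24.0%.

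Map6, the cold-stability protein gene, was sparse, with 347 UMIs in all. Neuron-like cells averaged 84.9 CPM ± 55.0 (SD, n = 14) and oligodendrocyte-like cells 56.4 CPM ± 25.4 (SD, n = 14), with overlapping ranges. Only 3 Map6 UMIs were found in 6967 microglia-like cells, at 0.73 CPM.

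Map4, the widely expressed form, varied least among classes. It averaged 297 CPM ± 61.3 (SD, n = 14) in endothelial-like and 260.5 CPM ± 67.9 (SD, n = 14) in mural-like cells, then 143 CPM in neuron-like, 132 CPM in microglia-like, 126 CPM in oligodendrocyte-like, 105 CPM in astrocyte-like and 87.4 CPM in OPC-like cells, each overlapping the next. Endothelial-like exceeded neuron-like cells in 12 of 14 libraries. The endothelial-like cluster also had all 4 red cell markers searched at least 2-fold above the other cells, and their part in its Map4 level was not tested.

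Neuron-like cells with a Gad1 or Gad2 UMI, which mark inhibitory neurons, and those without one were compared as values only. Map1b averaged 1406 CPM ± 567 (SD, n = 9) with and 2017 CPM ± 495 (SD, n = 14) without, over libraries with at least 10 such cells, and Mapt 320.3 CPM ± 132 (SD, n = 9) and 428 CPM ± 103 (SD, n = 14). Map2 averaged 1095 CPM ± 415 (SD, n = 9) and 1012 CPM ± 173 (SD, n = 14). All these ranges overlapped.

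The genes whose level followed each member most closely over 84 points, 14 libraries by 6 classes, were found by Pearson's r of log2(CPM + 10) among 10729 genes. Points of 1 library share its depth and those of 1 class its makeup, so r is a description. For Mapt the 8 genes were Elavl3 (r = 0.943), Ptprd (r = 0.918), Syt11 (r = 0.913), Sept8 (r = 0.910), Pcdh9 (r = 0.908), Tmem178b (r = 0.908), Nfasc (r = 0.900) and Stmn4 (r = 0.894). Of these, 7 had, like Mapt, a higher mean in oligodendrocyte-like than in neuron-like cells, and Tmem178b, at 109.9 against 122 CPM, did not. Genes close to Map7 were Stmn4 (r = 0.908) and Pex5l (r = 0.900), and Map1b was closest to the synaptic genes Rab3c (r = 0.906), Syt1 and Syp. Genes close to Map2 were Gria2 (r = 0.961) and Dlgap1 (r = 0.944), which are synaptic genes with higher levels in OPC-like and astrocyte-like than in oligodendrocyte-like cells here. Map1a was closest to Slc24a2 (r = 0.890), Ptprd and Spock1, and Map6 to Prkcz (r = 0.795), Slc24a2 and Prkacb. Map4 had no close match, the highest being Chmp3 (r = 0.721), Nampt and Arhgap29. Among the members, Mapt was closest to Map1a (r = 0.813) and Map7 (r = 0.764), and Map2 and Map7 were unrelated (r = 0.002).

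The list of 36 other microtubule regulators held 30 genes with at least 20 CPM in some major class. Of these, 11 were highest in neuron-like cells, 9 in oligodendrocyte-like, 6 in OPC-like, 2 in microglia-like, 1 in astrocyte-like and 1 in endothelial-like cells. In oligodendrocyte-like cells Stmn4, a stathmin that binds free tubulin, averaged 1723 CPM against 253 CPM in neuron-like cells, and Tppp, a tubulin polymerisation-promoting protein of oligodendrocytes, 717 against 187 CPM. Stmn2 and Stmn3, neuronal stathmins, averaged 459 and 232 CPM in neuron-like and 7.86 and 6.14 CPM in oligodendrocyte-like cells, while Stmn2 reached 296 CPM in endothelial-like and Stmn3 144 CPM in OPC-like cells. Dclk1, a doublecortin-like kinase, reached 2069 CPM in astrocyte-like cells.

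The comparison of genotypes asked whether the mutant human tau changed the mouse genes of tau and its relatives. No member passed the threshold, an adjusted p under 0.05 and a log2 fold change of 0.5 or more in size, in males, females, the mean of both sexes or the sex-by-genotype interaction, in all cells or in any of 6 classes. The test was edgeR's quasi-likelihood F-test on UMIs summed per library over 14 libraries, with Benjamini-Hochberg adjustment over all genes of a level. It covered 36 pairs of a member and a level that had enough counts, 144 values over the 4 contrasts. The share of all genes called was 0% in all cells, neuron-like, astrocyte-like and endothelial-like cells in each contrast. In oligodendrocyte-like cells 0.0693% were called in males, 0.0231% in females, 0% for the sexes combined and 0.462% for the interaction. In OPC-like cells 0.0797% were called in males and 0.0797% for the sexes combined, and in microglia-like cells 1.22% and 0.0748%, with 0% in their other contrasts. Calls were thus rare for all genes, and 0 members called is near that background. Without the adjustment, 12 of the 144 values had p under 0.05, of which 6 were male, 0 female, 2 for the sexes combined and 4 interactions, and all 12 were below 0. This was 8.33% of the values, and 16.7% of those of males, 5.56% with the sexes combined and 11.1% of the interactions. Over all genes the share at a level was 7.51% to 17.97% in males, 4.22% to 7.93% with the sexes combined and 5.36% to 17.7% for the interaction. The members' shares in these contrasts lay within the range of the background. In females the share of all genes was 1.74% to 3.35%, beside 0 members. How many of all genes under that p lay below 0 was not counted. The 12 values also share genes and libraries across levels and contrasts, so their common direction is a description only.

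Mapt itself was called in no class tested. In neuron-like cells, where the transgene is driven, the WT males 1, 2 and 4 had 377, 504 and 351 CPM and the THY-Tau22 males 1, 2 and 3 had 388, 352 and 309 CPM. The WT females 1 to 3 had 388, 343 and 341 CPM, and the THY-Tau22 females 1 to 5 had 665, 451, 462, 390.1 and 358 CPM. The groups overlapped in both sexes, with THY-Tau22 female 1 above all other libraries. The log2 fold change was -0.34 ± 0.33 (SE) in males, 0.29 ± 0.31 in females and -0.03 ± 0.23 over both (edgeR adjusted p = 0.812, 1.00 and 0.999).

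In oligodendrocyte-like cells, which held most Mapt UMIs, the WT males had 1031, 957 and 974 CPM of Mapt and the THY-Tau22 males 1106, 976 and 985 CPM. The WT females had 844, 1174 and 1017 CPM and the THY-Tau22 females 1312, 910.4, 934, 902 and 1166 CPM. The ranges overlapped in both sexes, and the log2 fold change over both was -0.03 ± 0.16 (SE, edgeR adjusted p = 0.985). Over all cells it was 0.05 ± 0.16 (edgeR adjusted p = 0.982). Sums over all cells follow the makeup of a library, so that fewer cells of a type and less RNA per cell cannot be told apart there. For Thy1, the gene whose promoter drives the transgene, the fitted log2 difference in neuron-like cells with the sexes combined was 1.03 ± 0.33 (SE, edgeR adjusted p = 0.793). The exact permutation of genotype within sex gave an unadjusted p = 0.0107, and the share of all genes with such a value was not counted. WT and THY-Tau22 libraries overlapped in males, at 37.6 to 97.7 CPM and 90.9 to 381 CPM. They overlapped in females too, at 101 to 155 CPM and 146 to 292 CPM.

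**Figure D3:**
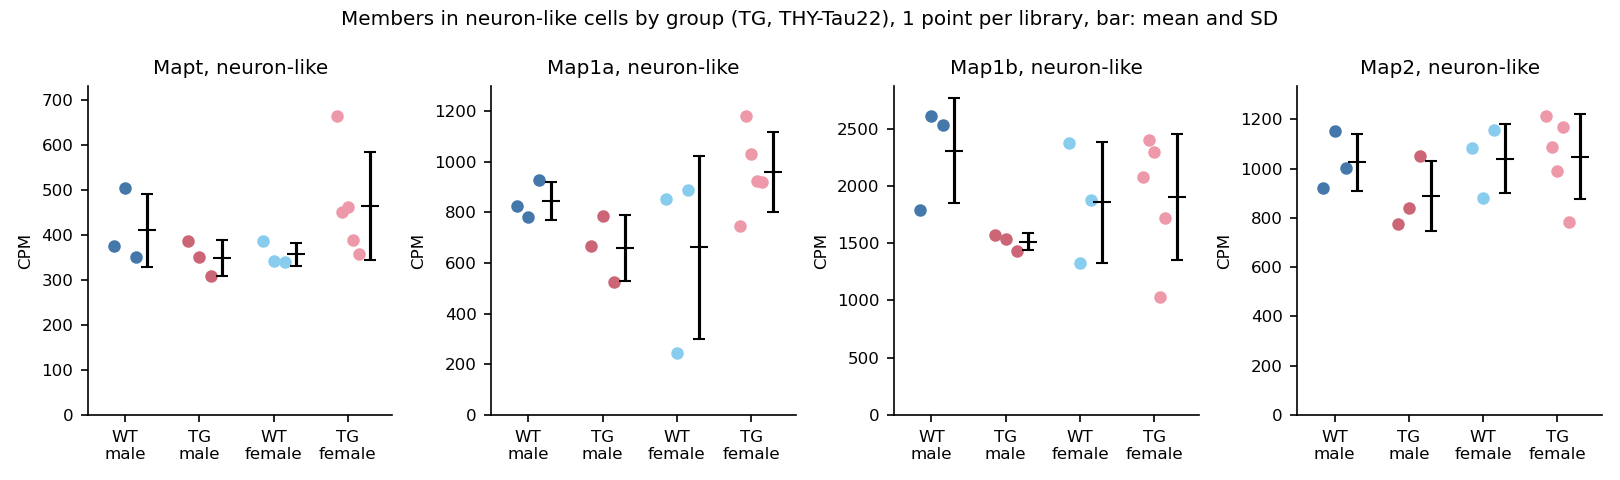
CPM (y axis, from 0) of Mapt, Map1a, Map1b and Map2 in neuron-like cells of the 4 groups (x axis), 1 point per library, with bars for the mean and SD. The Map1b values of the THY-Tau22 males, 1430 to 1573 CPM, lie below those of the WT males, 1787 to 2611 CPM. On this scale, CPM of all UMIs, the other pairs of genotypes overlap within each sex.

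Map1b had the lowest male log2 fold change among the tested members in neuron-like cells, OPC-like cells and all cells, without passing the threshold. In neuron-like cells the WT males had 1787, 2611 and 2530 CPM and the THY-Tau22 males 1573, 1534 and 1430 CPM, which did not overlap. The WT females had 2377, 1324 and 1874 CPM and the THY-Tau22 females 2077, 2401, 2292, 1028 and 1719 CPM, which did. The log2 fold change was -0.69 ± 0.34 (SE) in males and -0.04 ± 0.31 in females (edgeR adjusted p = 0.647 and 1.00). With 3 libraries on each side the exact permutation test cannot go below p = 0.10, which is what it gave for the males. Any male groups without overlap give that value, and the share of all genes without overlap was not counted at this or any other level. In neuron-like cells of males, 7.51% of all genes had an unadjusted edgeR p under 0.05.

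In OPC-like cells Map1b counts were low. The WT males had 282, 351 and 192 CPM, from 24, 22 and 9 UMIs, and the THY-Tau22 males 98.7, 86.4 and 0 CPM, from 4, 5 and 0 UMIs. The 0 of THY-Tau22 male 3 allows up to 141 CPM, and the 4 UMIs of male 1 came from 1 cell. The WT females had 103, 52.5 and 465 CPM and the THY-Tau22 females 161, 189, 46.1, 239 and 171 CPM. The male groups did not overlap and the female groups did, with WT female 3 as the highest library. The log2 fold change was -1.96 ± 0.62 (SE) in males and -1.42 ± 0.38 over both sexes (edgeR adjusted p = 0.253 and 0.328, with 9.48% and 6.61% of all genes at an unadjusted p under 0.05). An exact permutation of genotype within sex on mean log2(CPM + 10) gave p = 0.132 over both sexes. The female value, -0.88 ± 0.44, rested on WT female 3 and was 1.04 without it, and the value over both sexes was called when WT female 1 or WT female 2 was left out (edgeR adjusted p = 0.0421 and 0.0237). Without WT female 3 the value over both sexes was -0.47, and without both libraries titled MB22 it was -0.51 (edgeR adjusted p = 0.986 and 0.998). The neuronal marker sum in OPC-like cells was 277 to 764 CPM in WT males and 424 to 617 CPM in THY-Tau22 males, and its part in the Map1b values was not tested.

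Over all cells Map1b was 217, 325 and 307 CPM in the WT males and 155, 173 and 186 CPM in the THY-Tau22 males, which did not overlap (log2 fold change -0.90 ± 0.39 (SE), edgeR adjusted p = 0.288, with 15.4% of all genes at an unadjusted p under 0.05). It was called when only the male libraries were fitted (edgeR adjusted p = 0.0159) and when the filter on low counts was dropped (edgeR adjusted p = 0.0489). The share of neuron-like cells was 5.26% ± 1.06 (SD, n = 3) in WT males and 4.33% ± 1.08 (SD, n = 3) in THY-Tau22 males (exact permutation p = 0.30). That difference of -0.929 percentage points was -4.73 among cells with at least 500 genes and -0.215 with classes set by marker UMIs per cell. In females it was 4.73% ± 3.40 (SD, n = 3) and 4.74% ± 1.45 (SD, n = 5), with WT female 3 at 8.60%. In females Map1b over all cells overlapped, at 78.3 to 307 CPM and 108 to 316 CPM. The part of the neuron share in the all-cell Map1b values was not tested.

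Map1a in oligodendrocyte-like cells did not overlap between the male groups, and the difference did not pass the threshold. The WT males had 776, 691 and 967 CPM and the THY-Tau22 males 533, 533 and 530.2 CPM, so the THY-Tau22 values lay together below all WT values. How many of all genes were apart in this way between the male groups was not counted. The WT females had 508, 587 and 819.8 CPM and the THY-Tau22 females 789.6, 693, 739.9, 583 and 831 CPM, which overlapped. The log2 fold change was -0.81 ± 0.25 (SE) in males, a 1.75-fold lower level, and 0.22 ± 0.23 in females (edgeR adjusted p = 0.125 and 0.999, with 17.3% of all genes at an unadjusted p under 0.05 in males). The interaction, the male minus the female log2 fold change, was -1.03 ± 0.34 (SE, edgeR adjusted p = 0.144, with 16.7% of all genes at an unadjusted p under 0.05). The male difference was called by DESeq2, which gave an adjusted p of 0.0430, and the interaction was called without WT female 3 (edgeR adjusted p = 0.00592), which leaves 2 WT females.

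Map7 in oligodendrocyte-like cells followed the same order. The WT males had 1009.8, 1130.1 and 912 CPM and the THY-Tau22 males 836, 852 and 735 CPM, which did not overlap. The WT females had 1010.0, 875 and 849 CPM and the THY-Tau22 females 878, 860.2, 1051, 902 and 1027 CPM, which did. The log2 fold change was -0.54 ± 0.23 (SE) in males and 0.10 ± 0.21 in females (edgeR adjusted p = 0.217 and 0.999), and the interaction was -0.64 ± 0.31 (SE, edgeR adjusted p = 0.290). At this level 17.3% of all genes in males and 16.7% for the interaction had an unadjusted edgeR p under 0.05.

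**Figure D4:**
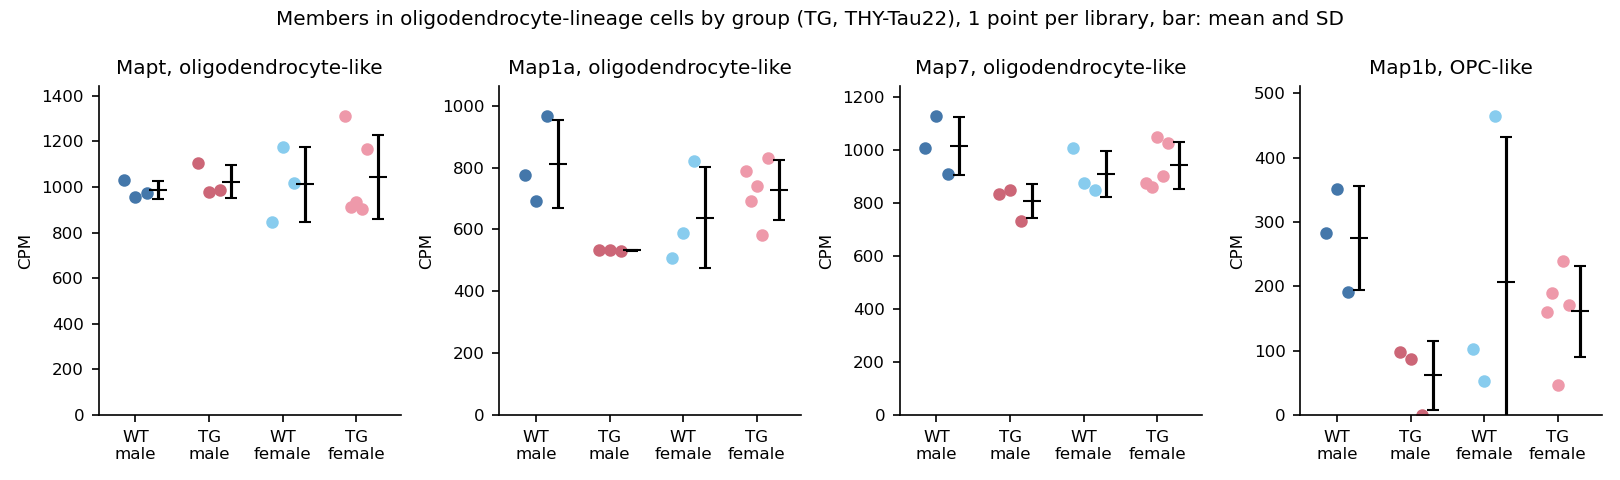
CPM (y axis, from 0) of Mapt, Map1a and Map7 in oligodendrocyte-like cells and of Map1b in OPC-like cells by group (x axis), 1 point per library, with bars for the mean and SD cut at 0. Mapt overlaps between genotypes in both sexes, while the THY-Tau22 males lie below the WT males for Map1a, Map7 and Map1b. None of these differences passed the threshold.

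Mitochondrial UMIs moved with the male groups at all 7 levels, in opposite directions for ribosomal and other transcripts. The 2 mitochondrial rRNAs made up 17.1% to 23.0% of UMIs in all cells of the WT males and 11.3% to 13.2% in the THY-Tau22 males. Other mitochondrial transcripts made up 0.589% to 0.873% of the UMIs without these rRNAs in the WT males and 1.24% to 1.75% in the THY-Tau22 males. In oligodendrocyte-like cells the rRNA ranges were 15.3% to 20.6% and 8.25% to 11.5%, and the ranges of the other transcripts 0.590% to 0.909% and 1.18% to 1.82%. The male ranges of both measures were apart at each level, and the female ranges overlapped. With all mitochondrial UMIs left out of the denominator, Map1a in oligodendrocyte-like cells was 824 to 1173 CPM in WT males and 589 to 610.4 CPM in THY-Tau22 males. Map1b in neuron-like cells was 2581 to 3289 CPM and 1641 to 1887 CPM, so neither pair of ranges overlapped on that scale. Some male ranges that overlapped in CPM of all UMIs were apart on that scale, so overlap depended on the denominator. Among them, Map1a in neuron-like cells was 977 to 1205 CPM in WT males and 602 to 964 CPM in THY-Tau22 males. Map2 was 1303 to 1440 CPM and 913 to 1204 CPM there, and 482 to 573 CPM and 356 to 461 CPM in astrocyte-like cells. The part of either mitochondrial measure in the male differences was not tested.

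Map2 was called in no class. In astrocyte-like cells the WT males had 403, 380.2 and 365 CPM and the THY-Tau22 males 312, 375 and 311 CPM, which overlapped. The WT females had 257, 277 and 435 CPM and the THY-Tau22 females 474, 443, 345, 384 and 451 CPM, which overlapped as well. The interaction was -0.84 ± 0.38 (SE, edgeR adjusted p = 0.251, with 17.7% of all genes at an unadjusted p under 0.05), and it was called without WT female 3, where the value was -1.35 (edgeR adjusted p = 0.0115). In neuron-like cells the log2 fold change over both sexes was -0.22 ± 0.20 (SE, edgeR adjusted p = 0.972). In OPC-like cells it was -0.32 ± 0.31 in males and 0.49 ± 0.28 in females (edgeR adjusted p = 0.770 and 0.998).

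Map4 and Map7 in microglia-like cells were lower in THY-Tau22 males without passing the threshold. Map4 was 122, 126 and 237 CPM in the WT males and 107, 101 and 101 CPM in the THY-Tau22 males (log2 fold change -0.70 ± 0.30 (SE), edgeR adjusted p = 0.221, with 18% of all genes at an unadjusted p under 0.05). In the females it was 108, 90.7 and 129.6 CPM and 99.7, 184, 139, 138 and 161 CPM, and the interaction was -1.06 ± 0.41 (SE, edgeR adjusted p = 0.257, with 14.1% of all genes at an unadjusted p under 0.05). The male groups did not overlap and the female groups did. Among cells with at least 500 genes the male Map4 value was 0.17. Map7 was 89.3, 91.8 and 107 CPM in the WT males and 58.9, 64.1 and 67.1 CPM in the THY-Tau22 males, and over both sexes its log2 fold change was -0.49 ± 0.21 (SE, edgeR adjusted p = 0.600, with 7.93% of all genes at an unadjusted p under 0.05).

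Map4 was not called in endothelial-like cells, where it was highest. Its log2 fold change over both sexes there was -0.18 ± 0.20 (SE, edgeR adjusted p = 0.914). Map1a, Map4 and Map7 in neuron-like cells had log2 fold changes over both sexes of -0.08 ± 0.24, 0.13 ± 0.38 and -0.26 ± 0.33 (SE, edgeR adjusted p = 0.991, 0.991 and 0.975). Map6 passed the count filter only in all cells and oligodendrocyte-like cells, with log2 fold changes over both sexes of 0.20 ± 0.25 and 0.13 ± 0.31 (SE, edgeR adjusted p = 0.952 and 0.982). The other tested pairs of a member and a level had values over both sexes from -0.62 (Map7 in OPC-like cells, edgeR adjusted p = 0.742) to 0.23 (Map4 in oligodendrocyte-like cells, edgeR adjusted p = 0.943).

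The count filter left 13 pairs of a member and a level out of the edgeR test, and these had permutation values only. Map4 in OPC-like cells was 82.3, 79.9 and 42.6 CPM in the WT males and 197, 121 and 94.3 CPM in the THY-Tau22 males, with THY-Tau22 higher and no overlap. In females it was 0 to 89.4 CPM and 29.9 to 133 CPM, which overlapped. The difference in mean log2(CPM + 10) over both sexes was 1.19 (exact permutation p = 0.00982). It rested on low counts, with 7, 5 and 2 UMIs in the WT males and 8, 7 and 2 in the THY-Tau22 males. The WT females had 1, 0 and 10 UMIs, and the 0 allows up to 157 CPM, above every THY-Tau22 female value. Map7 in endothelial-like cells was 42.5, 69.2 and 57.5 CPM in the WT females and 25.8, 19.6, 16.0, 32.4 and 14.1 CPM in the THY-Tau22 females, with THY-Tau22 lower and no overlap (exact permutation p = 0.0179, the smallest this design can give). In males it was 32.0 to 99.8 CPM and 41.8 to 49.6 CPM, and over both sexes the difference was -0.61 (exact permutation p = 0.0384). These are unadjusted values from 49 pairs, of which 3 had p under 0.05 over both sexes, the remaining one being Map7 in microglia-like cells (exact permutation p = 0.0429). In females 2 pairs had p under 0.05, Map7 in endothelial-like cells and Map2 in OPC-like cells. Map2 there was higher in THY-Tau22 females, with overlapping ranges (exact permutation p = 0.0357). The share of all genes with such a permutation p, or without overlap, was not counted, so these counts have no background beside them.

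By the edgeR fits, the tested members as a group lay slightly to the lower side in THY-Tau22 males. Their median log2 fold change was -0.21 in all cells, -0.32 in neuron-like, -0.18 in oligodendrocyte-like and -0.46 in OPC-like cells, beside medians over all genes of 0.01, 0.04, 0.01 and 0.00. Values below 0 in males were 5 of 7 in all cells, 4 of 6 in neuron-like, 6 of 7 in oligodendrocyte-like and 5 of 5 in OPC-like cells. The female medians at these levels were 0.08, 0.09, 0.10 and -0.43, with 1 of 7, 3 of 6, 1 of 7 and 4 of 5 values below 0. In astrocyte-like and microglia-like cells the male medians were -0.17 and -0.46 and the female medians 0.16 and 0.36. The edgeR scaling centres genes near 0, so the all-gene medians lie there by design. On log2(CPM + 10) without it, the male differences in oligodendrocyte-like cells were 0.05 for Mapt, 0.57 for Map4 and 0.01 for Map6. Those of Map1a, Map1b, Map2 and Map7 were -0.59, -0.05, -0.04 and -0.33. In astrocyte-like cells the edgeR fits put 4 of 4 tested members below 0 in males. On log2(CPM + 10) the male differences there were 0.01 for Mapt, 0.17 for Map1a, 0.13 for Map4, 0.18 for Map6 and 0.38 for Map7. Those of Map1b and Map2 were -0.44 and -0.20, so some signs depended on the scale. The levels share libraries, and the male and female values of a level come from 1 fit.

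**Figure D5:**
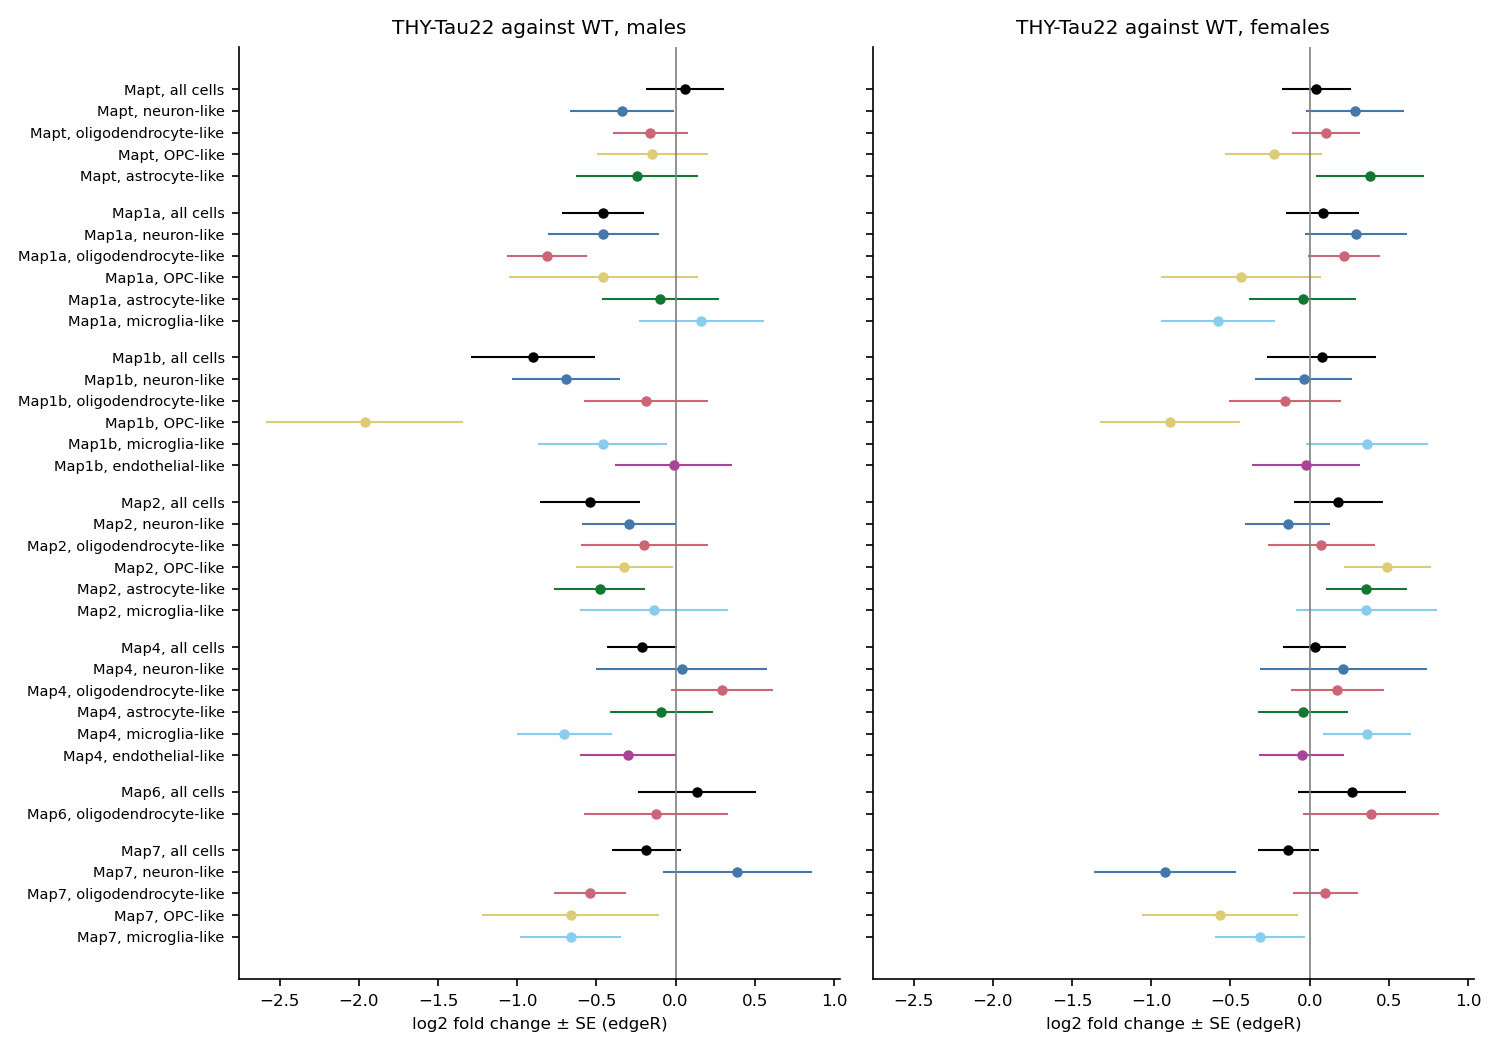
Log2 fold change of THY-Tau22 against WT with its SE (x axis, edgeR) for each member and level with enough counts (y axis), males on the left and females on the right. The lowest value is Map1b in OPC-like cells of males, at -1.96, and no value passed the threshold in either sex.

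None of the tested genes among the 36 other microtubule regulators passed the threshold at any level or in any contrast either. In all cells 30 were tested, with medians of -0.22 in males and 0.06 in females. With the sexes combined, the unadjusted p was under 0.05 for 0 of 30 in all cells and 0 of 15 in neuron-like cells, beside 4.22% and 4.59% of all genes, so none is named from there. In oligodendrocyte-like cells 16 were tested, and 1, Map7d2, a relative of Map7, was below that level for the sexes combined, at -0.67 ± 0.20 (log2, SE, edgeR adjusted p = 0.920). This 1 of 16 is near the 5.2% of all genes at that level, and Map7d2 is named here after its values were seen.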

How the data were processed

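The deposited tables, 1 per library, hold whole-number counts of UMIs per gene and barcode, which the authors made with a Drop-seq pipeline on mm10, as the submitters' processing notes name the build. The aligner version, annotation and counting strand are not given in the sources used here. Groups came from the sample labels. Each table held 3000 barcodes, and those with 200 to 7000 genes were kept. Cells were clustered without the 7 genes (scanpy 1.11.5 in Python 3.11.15, 2500 variable genes, 19 components, 20 neighbours, Leiden resolution 0.5). A cluster was named when at least 3 and at least 80% of the markers of a list lay 2-fold or more above the other cells and at 20 CPM or more. The name also needed more such markers than any other list, and no other list with more markers among the cluster's leading genes. A cluster in which much of another list was raised too stayed unnamed unless its own markers were among those genes. Doublets were kept in the main results, and Scrublet marked 1603 cells (5.62%), which an alternative removed. Counts were summed per library and class and tested with edgeR 4.0.16 (quasi-likelihood, TMM factors, genes filtered by filterByExpr, group means of sex and genotype, R 4.3.3) with Benjamini-Hochberg adjustment over the genes of a level. The interaction is the male minus the female log2 fold change. Single values were tested by exact two-sided permutation over libraries (scipy 1.17.1). Libraries were taken as separate animals, which the titles do not state in words, so p-values measure the spread between these libraries. Intervals and limits for a count of 0 cover counting error only. DESeq2 1.42.0, other filters (among them at most 5% mitochondrial UMIs per cell, counted without the mitochondrial rRNAs), clusterings and left-out libraries were alternatives. The levels of all 7 members were computed at every level, with those under the count filter tested by permutation only, and other microtubule genes were named if their unadjusted p was under 0.05 in all cells or neuron-like cells for the sexes combined. The genes most like a member were the 8 (Mapt) or 3 (the others) with the highest r, of which some are not reported here. The members and lists were chosen with earlier results of these data known. The statistical steps were tested on simulated data.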

Additional observations from a re-analysis of the deposited data

Results flagged for a closer look

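In 3 of 36 groups of a member, a level and the 5 THY-Tau22 females, 1 library stood apart from the other 4 by a gap above 0.71 of the whole range, Dixon's 95% limit for 5 values, which chance passes in about 1 of 20 groups. Map6 in all cells was 42.3 CPM in THY-Tau22 female 4 and 14.4 to 21.9 CPM in the others. Mapt in astrocyte-like cells was 126 CPM in THY-Tau22 female 5 and 96.3 to 102 CPM in the others. Map1a in microglia-like cells was 5.95 CPM, from 1 UMI, in THY-Tau22 female 2 and 39.8 to 47.5 CPM in the others.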

How the results depend on the processing

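No member was called in the main results or, in females, under any alternative. In males DESeq2 called 1 (Map1a in oligodendrocyte-like cells), no filter on low counts 1 (Map1b in all cells), fits of 1 sex 2 (both of these), the fit without both libraries titled MB22 1 (Map1a in oligodendrocyte-like cells, edgeR adjusted p = 0.0450), and fits without 1 library 0 to 1 (Map1a without WT female 3, edgeR adjusted p = 0.0396). With the sexes combined, fits without 1 library called 0 to 1 (Map1b in OPC-like cells, without WT female 1 or 2). For the interaction, the fit without MB22 called 3 (Map1a in oligodendrocyte-like cells, Map2 in all cells and in astrocyte-like cells), and fits without 1 library called 0 to 4 (without WT female 3 these and Map1b in all cells). Of 3674 refits of the 144 log2 fold changes, 267 changed sign, 7 of them for values at least 1 SE from 0, which are given next. Map1b in OPC-like cells of females was 0.97 without MB22 and -1.16 to 1.04 without 1 library. Map1a in OPC-like cells of the sexes combined was 0.28 by permutation and -0.67 to 0.15 without 1 library. Map4 in microglia-like cells of males was 0.17 with at least 500 genes per cell. Map7 in microglia-like cells of females was 0.15 without MB22 and -0.49 to 0.18 without 1 library. The female difference in the share of neuron-like cells was -0.0619 percentage points at Leiden resolution 1.0 and -1.24 to 1.95 without 1 library. Without mitochondrial UMIs Mapt and Map7 in oligodendrocyte-like cells averaged 1192 and 1079 CPM, Map1b and Map2 in neuron-like cells 2391 and 1261 CPM and Map4 in endothelial-like cells 358 CPM, since the denominator is smaller. At 300 UMIs per cell the share of cells with a UMI was 27.0% for Mapt and 21.8% for Map7 in oligodendrocyte-like cells, 20.2% for Map1a, 36.9% for Map1b, 24.0% for Map2 and 2.33% for Map6 in neuron-like cells, and 8.58% for Map4 in endothelial-like cells. The class with the highest level stayed the same in 49 of 49 pairs of a member and a setting. The causes of these changes were not tested. No paired analysis was made because the labels give no replicate numbers shared by the groups. The shared TAO code and the MB22 prefix each link a single pair of libraries. The codes of an S and a number also recur between libraries, and whether they mark a run or batch is not given. Neuron-like cells, 25 to 204 per library, limit the precision of the neuronal values. The counts of Map6, and of Map1b and Map4 in OPC-like cells, are low.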
